A study of Mus musculus with 36 samples.

Results

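Imprinted genes are expressed from 1 parental copy, and here 40 of them were followed in mice whose single X chromosome came from the father (XpO) or from the mother (XmO), and in mice with an X chromosome from each parent (XX). The genes were taken by name, current or older, and every probe of theirs with values in a tissue was kept. Of the 40 genes, 29 had such a probe, 59 probes in all out of 28885, and 21 of these genes had probes with values in all 4 tissues (35 probes). The other 11 genes (H19, Meg3, Zim1, Magel2, Peg10, Sgce, Kcnq1ot1, Zrsr1, Ascl2, Xlr3a and Xlr4b) had no probe named here and were not analysed here. Brain had values for 51 member probes of 26 genes, muscle for 45 of 25 genes, kidney for 43 of 24 genes and liver for 40 of 24 genes.

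The mice were females of 12 weeks on the random bred MF1 background. By the account of the study, all their X chromosomes descended recently from 1 progenitor X. The XpO mice (39 chromosomes) were daughters of In(X)1H/XPaf mothers and XY fathers, and the XX mice (40 chromosomes) came from that same cross. The XmO mice (39 chromosomes) had XX mothers and XPafY* fathers. In(X)1H is an inversion of the X chromosome and Paf, patchy fur, a coat mutation that marks an X chromosome. The parental origin of the X chromosome and the cross therefore cannot be told apart in any comparison of XmO with XpO. The XX mice had their maternal X from In(X)1H/XPaf mothers. The methods do not state whether it carried In(X)1H or Paf, so XX and XpO may differ in this too. RNA of liver, kidney, muscle and brain was pooled over 3 mice (pools 1 and 2) or 2 mice (pool 3), with 3 pools per genotype, and each pool was hybridised to 1 array per tissue, 36 arrays in all. The methods give these pool sizes but a total of XX mice that is 1 lower than they imply, so 1 XX pool may hold fewer mice. The p-values measure the spread between these pools.

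In mammals a small set of autosomal genes keeps a mark of the parent of origin, a difference in DNA methylation laid down in the egg or the sperm, and most of them lie in clusters with a shared control region. Many genes expressed from the paternal copy promote growth of the fetus, such as Igf2, a growth factor, and many expressed from the maternal copy restrain it, such as Igf2r, the receptor that clears IGF2, Cdkn1c, an inhibitor of the cell cycle, and Grb10, an adaptor that dampens signalling by the insulin and IGF receptors. Brain and muscle are tissues in which some of these genes stay active in the adult. The parental origin of expression can depend on the tissue: Grb10 is expressed from the maternal copy in most tissues and from the paternal copy in neurons, Ube3a, a ubiquitin ligase, is imprinted in neurons, and Dcn, Cd81 and Tssc4 are known as imprinted mainly from the placenta. On the X chromosome, Xlr3b and its neighbours are known as imprinted in the brain of the mouse. Of the 40 genes, 19 were listed as expressed from the maternal copy, 18 from the paternal copy and 3 as X-linked. The arrays report the sum of both copies.

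The intensities of 35 arrays were used, since the column of the muscle array of XpO pool 3 held whole numbers of 10 to 108 whose ranks had a correlation of -0.0374 with the normalised values of that array. XpO muscle therefore rests on 2 pools throughout. Levels are log2 of the intensity after quantile normalisation, so that a difference of 1 is a doubling. The 17747 probes that the authors counted as detected in no tissue had a median level of 5.69 and a 95th percentile of 5.90, and all member probes with values lay above this percentile on average except 2 in brain (Calcr and Xlr3b). All 8 hepatocyte markers were counted in liver, all 8 skeletal muscle markers in muscle, 7 of 8 tubule markers in kidney and 7 of 8 neuronal markers in brain. Brain pools differed more than others, with a median correlation with the other brain arrays of 0.971 for XmO pool 2 and 0.983 for XX pool 3.

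The paternally expressed genes were mostly highest in brain. The probes of maternally expressed genes were more often highest in muscle than in any other tissue. Of the 13 probes of paternally expressed genes with values in all tissues, 10 probes of 8 genes (Dlk1, Igf2, Impact, Inpp5f, Mkrn3, Ndn, Peg3 and Snrpn) had their highest mean level in brain and none had it in muscle. Dlk1 stands here by its dim probe ILMN_1244618, whose step from muscle to brain did not pass the threshold (0.24 ± 0.12, limma, adjusted p = 0.0525). Its other probe, ILMN_2771738, was not counted in liver and had means of 8.05 in muscle and 7.94 in brain (limma, adjusted p = 0.7). Of the 22 probes of 11 maternally expressed genes, 13 probes of 6 genes (Cdkn1c, Commd1, Dcn, Gnas, Grb10 and Ube3a) had their highest mean level in muscle. In brain 4 probes of 4 genes (Cd81, Copg2, Gnas and Ppp1r9a) had it. Gnas and Ube3a thus also had probes that were highest in other tissues than muscle. Over both classes 40% of the 35 probes were highest in brain and 37.1% in muscle, against 22.5% and 27.3% of the 17020 probes with values in all 4 tissues. Probes of 1 gene share their target, and the classes were not compared by a test.

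Snrpn and Ndn, neighbours in the cluster on chromosome 7 that is deleted in Prader-Willi syndrome in human, were among the genes with the widest range over tissues. Snrpn encodes a splicing protein of neurons and Ndn encodes necdin, a MAGE family protein that restrains the growth of neural cells. The Snrpn probe ILMN_1247894 had a median level of 14.53 in brain (14.42 to 14.82 over 9 pools), 11.61 in muscle (11.42 to 11.93 over 8 pools), 9.91 in kidney (9.86 to 10.05) and 9.42 in liver (8.90 to 9.81). The brain and liver means differed by 5.19 ± 0.08 (SE) on the log2 scale (adjusted p = 8.64e-31), and the pools of any 2 of these tissues did not overlap. Ndn followed the same order, with medians of 14.07 in brain (13.64 to 14.34), 8.96 in kidney (8.58 to 9.67) and 8.33 in liver (8.17 to 8.49) and a mean of 10.99 in muscle (10.76 to 11.20). Brain exceeded liver by 5.67 ± 0.09 (adjusted p = 4.41e-30). Mkrn3, a ring finger gene of the same cluster, was dim in every tissue. Its median was 6.99 in brain (6.45 to 7.73), 6.83 in kidney (6.47 to 7.09), 6.43 in muscle (6.24 to 6.68) and 6.20 in liver (5.87 to 6.54), and brain and kidney did not differ beyond their spread (0.17 ± 0.12, adjusted p = 0.218).

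Peg3, a zinc finger gene, and Usp29, a gene of the ubiquitin-specific protease family, lie next to each other and face away from each other from a shared start. Peg3 probe ILMN_1245246 had a median of 10.96 in brain (10.75 to 11.57), 9.12 in muscle (8.76 to 9.28), 8.21 in kidney (7.85 to 8.52) and 7.93 in liver (7.72 to 8.41). Brain exceeded liver by 3.12 ± 0.10 (adjusted p = 2.57e-22), whereas kidney and liver did not differ beyond their spread (adjusted p = 0.126). The Usp29 probe ILMN_1229634 was counted as detected only in brain, where its median was 10.16 (9.59 to 10.72). Another Usp29 probe, ILMN_2559962, stayed between 6.02 and 6.60 in all tissues and was highest in liver, so the probes of Usp29 did not show the same order.

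The promoter windows of Peg3 and Ndn span 250 bases before to 50 after a start listed for the gene in RefSeq (GRCm38.p6). For Ndn this is the start of the gene. For Peg3 it lies inside the gene, whose own start is at 6730462. They are shown because both genes were brain-high, paternally expressed members of imprinted clusters. CpG pairs, the sites of DNA methylation, are in capitals. The Peg3 window is chr7:6730370-6730669 on the minus strand and the Ndn window is chr7:62348027-62348326 on the plus strand.
Peg3: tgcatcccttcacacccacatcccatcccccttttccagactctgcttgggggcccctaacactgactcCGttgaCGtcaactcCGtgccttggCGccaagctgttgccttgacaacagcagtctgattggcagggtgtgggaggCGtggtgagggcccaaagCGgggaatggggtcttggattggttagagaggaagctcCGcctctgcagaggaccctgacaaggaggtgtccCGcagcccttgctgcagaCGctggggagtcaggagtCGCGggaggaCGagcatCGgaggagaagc
Ndn: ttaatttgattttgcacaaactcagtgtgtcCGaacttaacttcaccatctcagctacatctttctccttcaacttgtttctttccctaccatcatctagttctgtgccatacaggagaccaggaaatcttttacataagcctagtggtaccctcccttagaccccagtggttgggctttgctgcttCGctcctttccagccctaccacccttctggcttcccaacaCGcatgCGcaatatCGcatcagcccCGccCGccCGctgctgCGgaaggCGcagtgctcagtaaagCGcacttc
The Peg3 window holds 13 CpG (the letters CG, the same on both strands) and the Ndn window 11. Among 32851 such windows of 27025 genes the median was 7, and 37.9% held at least as many CpG as Peg3 and 41.4% at least as many as Ndn. The Usp29 window holds 17 CpG, a number that 31.4% of windows reached, and overlaps that of Peg3 by 263 bases. Methylation was not measured in these samples.

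Other genes listed as paternally expressed had a steep step between brain and the other tissues. Rasgrf1, an activator of Ras in neurons, had with probe ILMN_1233146 a median of 14.05 in brain (13.67 to 14.17), 6.22 in muscle (5.87 to 6.98) and 5.97 in liver (5.79 to 6.40), and it was not counted in kidney. The difference between brain and liver, 7.94 ± 0.09 (adjusted p = 4.64e-34), was the largest between 2 tissues for any member probe tested. Impact, a regulator of translation under stress, was higher in brain than in liver with both probes, by 3.71 ± 0.11 for ILMN_2760977 (adjusted p = 1.7e-23). Nnat, a small membrane protein of neurons and adipose tissue, was counted in muscle and brain only, and probe ILMN_2755578 had a median of 8.13 in brain (7.66 to 9.26) and 6.79 in muscle (5.96 to 7.77). Igf2 pools of brain and muscle overlapped, with medians of 12.34 in brain (11.64 to 12.88) and 12.00 in muscle (11.57 to 12.29). The difference was 0.40 ± 0.30 (limma, adjusted p = 0.213), in a fit with 1 spread per probe shared by all tissues. Igf2 spread most in kidney (SD 1.15, against 0.409 in brain and 0.251 in muscle), which widens that SE. The Igf2 median was 9.07 in kidney (8.29 to 11.33) and 7.19 in liver (7.03 to 7.46). Inpp5f, a phosphoinositide phosphatase with an imprinted short isoform in the brain, was highest in brain with probe ILMN_2723699 (median 12.41) and in kidney with probe ILMN_2619390 (median 7.30). In bulk tissue, fewer cells of a type and less RNA per cell cannot be told apart.

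Among the maternally expressed genes, Dcn, the proteoglycan decorin of connective tissue, Grb10 and Commd1, a regulator of copper transport and NF-kB signalling, were highest in muscle with every probe counted in all tissues. Dcn probe ILMN_2747959 had a median of 13.66 in muscle (13.56 to 13.78), 12.77 in liver (12.51 to 12.88), 12.09 in kidney (11.62 to 12.23) and 9.96 in brain (9.63 to 10.54). Muscle exceeded brain by 3.71 ± 0.10 (adjusted p = 1.84e-24), and the order muscle, liver, kidney, brain was the same for all 5 Dcn probes, although 1 of them was not counted in brain. Grb10 probe ILMN_1238905 had a median of 11.45 in muscle (11.10 to 11.68), 9.84 in kidney (9.77 to 9.98), 9.49 in brain (8.99 to 10.43) and 8.14 in liver (7.86 to 8.61), with muscle 3.20 ± 0.11 above liver (adjusted p = 4.74e-21). Cdkn1c was high in muscle and kidney alike, with medians of 11.44 (11.01 to 11.73) and 11.22 (11.09 to 11.37), which did not differ beyond their spread (adjusted p = 0.198). Both lay above brain (9.09, 8.76 to 10.01) and liver (8.19, 7.99 to 8.37). Gnas, which encodes the stimulatory G protein alpha subunit and also gives transcripts of either parental copy, was highest in muscle with 3 of the 4 probes counted in all tissues.

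A smaller number of maternally expressed genes were marked by kidney or liver. Phlda2, a gene that limits placental growth, was counted in kidney only, with a median of 9.64 (9.49 to 9.83). Slc22a18, a transporter, had with probe ILMN_2702633 a median of 10.44 in kidney (10.30 to 10.54), 8.55 in liver (8.28 to 8.66) and 6.61 in muscle (6.31 to 6.70), and kidney exceeded muscle by 3.89 ± 0.05 (adjusted p = 6.74e-33). Its dimmer probe ILMN_2523666 ran the other way between kidney and liver, with means of 6.43 and 7.53, and liver exceeded kidney by 1.10 ± 0.05 (adjusted p = 1.37e-18). Igf2r was highest in kidney (median 10.09, 9.98 to 10.22), then muscle (9.76, 9.62 to 10.02), liver (8.51, 8.36 to 8.71) and brain (7.96, 7.69 to 8.21), and each step was past the threshold. Tssc4, a gene of the Kcnq1 cluster, was highest in liver, with a median of 7.59 (7.37 to 7.72) for probe ILMN_2460043, and so was the paternally expressed Mest, with a median of 7.71 (7.51 to 8.06). Cd81, a tetraspanin of the cell surface, was high everywhere, with medians of 13.13 in muscle to 14.05 in brain, and brain and kidney did not differ beyond their spread (adjusted p = 0.0774). Copg2, a subunit of the coatomer of transport vesicles, had medians of 6.88 in muscle to 7.49 in brain. Dim members included Asb4, an adaptor of a ubiquitin ligase that was counted in muscle only (means 6.39 and 6.46 for its probes), the paternally expressed zinc finger gene Plagl1, with a mean of 6.54 in liver (ILMN_1252582), and Calcr, the calcitonin receptor, counted in brain only (mean 5.68). Ppp1r9a, the neuronal actin-binding protein neurabin, was the maternally expressed gene with the largest excess in brain, 4.68 ± 0.10 above liver (adjusted p = 2.61e-27). Between pairs of tissues, 30 to 35 of the 36 to 40 member probes tested passed the threshold, namely 35 of 39 between liver and kidney, 34 of 38 between liver and muscle, 33 of 36 between liver and brain, 33 of 39 between kidney and muscle, 30 of 38 between kidney and brain and 33 of 40 between muscle and brain. Of all probes 80.5%, 81.1%, 87.7%, 78.3%, 77.4% and 83.7% did so in these pairs, shares close to those of the members.

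**Figure D1:**
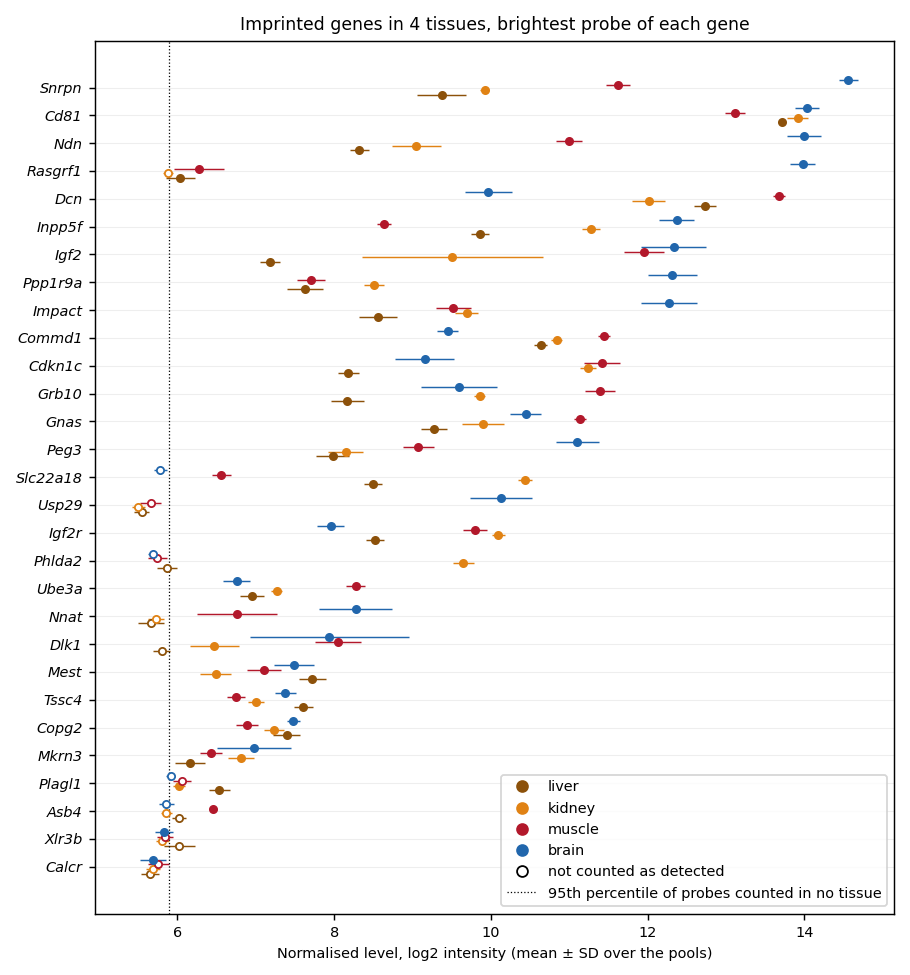
Normalised level (log2 intensity, horizontal axis) of the brightest probe of each of the 29 genes in liver, kidney, muscle and brain, as mean ± SD over 9 pools (8 in muscle), with open circles where the probe was not counted as detected in the tissue and a dotted line at 5.90, the 95th percentile of the probes counted in no tissue. Snrpn, Ndn and Rasgrf1 stand far to the right in brain, Dcn, Grb10 and Commd1 are highest in muscle, and Phlda2 stands above the dotted line in kidney alone.

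Between XmO and XpO mice no imprinted gene passed the test, and most differences were small. No member probe passed the threshold in any tissue in the limma test adjusted over all probes, 0 of 40, 43, 45 and 51 in liver, kidney, muscle and brain, where 0.0503%, 0.0897%, 0.0138% and 0.0161% of all probes passed. The smallest adjusted p of a member was 0.416, 0.321, 0.448 and 0.328 in these tissues. At an unadjusted p under 0.05 there were 2, 4, 5 and 1 member probes, against 9.7%, 11.2%, 9.13% and 11.2% of all probes. Pools of XmO and XpO did not overlap for 5, 10, 12 and 6 member probes, against 17.2%, 17.9%, 27.6% and 18% of all probes.

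Most of these differences were bounded within ±1. The 95% interval of the XmO minus XpO difference lay within ±1 on the log2 scale for 47 of the 51 brain probes, 44 of the 45 muscle probes, 42 of the 43 kidney probes and all 40 liver probes, and within ±0.5 for 28, 37, 38 and 37 of them. Of all probes, 18234 of 24863, 19113 of 21810, 22395 of 23417 and 18110 of 19878 lay within ±0.5, in the same order. The median SE of the members was above that of all probes in each tissue, most in brain (0.144 against 0.104). The median difference of the member probes was -0.0264 in brain, -0.0321 in muscle, -0.039 in kidney and 0.0172 in liver, and in liver its sign turned (-0.0755) when arrays were scaled by their median instead. For maternally expressed genes the medians were 0.0314, -0.0706, -0.0177 and -0.00109, and for paternally expressed genes -0.0147, 0.00197, -0.046 and -0.0307, in the order liver, kidney, muscle, brain.

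**Figure D2:**
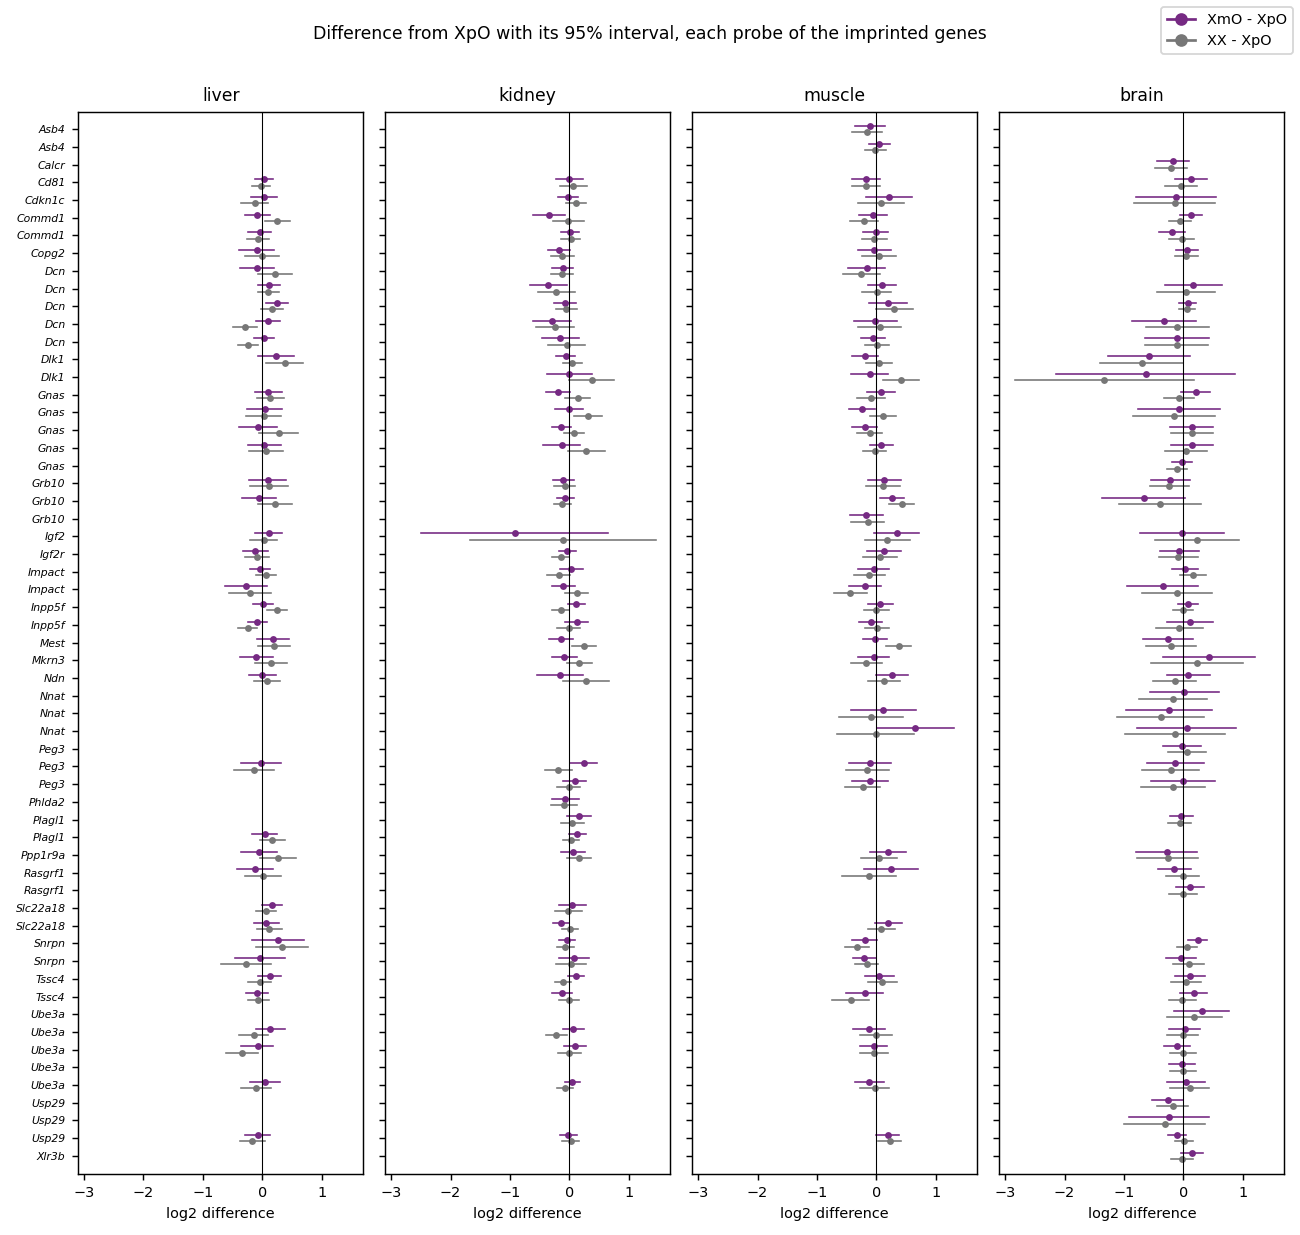
Difference from XpO on the log2 scale (horizontal axis, points) with its 95% interval (lines) for each probe of the imprinted genes, 1 panel per tissue, XmO minus XpO in purple and XX minus XpO in grey. Most intervals cross 0 and lie within ±1, and the widest are those of Dlk1 in brain and Igf2 in kidney.

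Of 179 tests between XmO and XpO, 12, of 12 probes of 9 genes, had an unadjusted p under 0.05, and no probe had one in 2 tissues. Snrpn (ILMN_1247894) was the single one in brain: XpO pools were at 14.49, 14.49 and 14.42 and XmO pools at 14.82, 14.65 and 14.64. All XmO pools lay above all XpO pools, the difference was 0.24 (95% interval 0.07 to 0.40, adjusted p = 0.328), and it was 0.01 with median scaling. In muscle the same probe lay lower in XmO, at 11.62, 11.67 and 11.59 against 11.93 and 11.72 in XpO (difference -0.20, -0.41 to 0.01, adjusted p = 0.561). A second Snrpn probe (ILMN_2748091) lay lower in XmO muscle too (-0.20, adjusted p = 0.529), and its interval in brain included 0.

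Grb10 (ILMN_1238905) lay higher in XmO muscle, where the pools were at 11.31, 11.46 and 11.43 against 11.18 and 11.10 in XpO (0.26, 0.06 to 0.47, adjusted p = 0.448). In brain it lay lower, with XmO pools at 9.41, 8.99 and 9.45 and XpO pools at 9.53, 10.43 and 9.90 (-0.67, -1.37 to 0.03, adjusted p = 0.457). The pools did not overlap in either tissue and the signs were opposite. The difference between muscle and brain was 0.93 ± 0.29 (SE, limma, unadjusted p = 0.00282, adjusted p = 0.11). The other tested Grb10 probe in both tissues, the dimmer ILMN_1230113, had XmO minus XpO intervals that included 0 in both. In muscle the summed level of 8 fibroblast and matrix markers (7 counted, not Fbn1) was 4739 to 5319 in XpO and 5355 to 5948 in XmO. None of their 9 probes had an unadjusted p under 0.05 (limma). Marker lists foreign to muscle separated these groups too: 8 hypothalamus markers (3 counted, not Oxt, Hcrt, Agrp, Cartpt and Sim1) summed to 192.5 to 200 in XpO and 213.2 to 219.1 in XmO. In brain the summed level of the 8 hypothalamus markers (6 counted, not Agrp and Sim1) was 989.1 to 4020 in XpO and 448.4 to 833.2 in XmO. The part of these markers in the Grb10 values was not tested.

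Nnat (ILMN_2755578) had the largest positive difference of any member in any tissue, in muscle, with XpO pools at 6.44 and 6.61 and XmO pools at 6.87, 6.88 and 7.77 (0.65, 0.01 to 1.30, adjusted p = 0.542), and pool 3 of XmO stood well above the others. The summed level of 8 adipocyte markers (7 counted, not Cfd) was 16590 and 21490 in XpO muscle and 20580, 26700 and 19190 in XmO muscle. The median difference of the 7 counted was 0.417, against 0.000934 over all probes, and 2 had an unadjusted p under 0.05, while XmO pool 3 had the lowest sum of the XmO pools. The part of these markers in the Nnat values was not tested. Igf2 in muscle lay at 11.64 and 11.88 in XpO and at 12.10, 12.04 and 12.16 in XmO, which did not overlap (0.34, -0.04 to 0.72, adjusted p = 0.595). Gnas (ILMN_1252926) lay lower in XmO muscle, at 8.88, 8.71 and 8.62 against 8.96 and 9.01 (-0.25, adjusted p = 0.511), and the dim Gnas probe ILMN_2467712 lay lower without overlap in kidney (-0.13) and muscle (-0.20). Usp29 probe ILMN_2559962 lay higher in XmO muscle (0.19, adjusted p = 0.544) and lower in XmO brain (-0.10, adjusted p = 0.568).

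In kidney Peg3 (ILMN_1245246) lay higher in XmO, at 8.26, 8.52 and 8.33 against 7.92, 8.25 and 8.21 in XpO (0.24, 0.02 to 0.47, adjusted p = 0.408). Commd1 (ILMN_1215639) lay lower, at 8.66, 8.57 and 8.34 against 8.83, 8.63 and 9.14 (-0.34, -0.61 to -0.08, adjusted p = 0.321), and its pools overlapped. The Commd1 value in XmO brain was on the other side (0.13), and the difference between kidney and brain was -0.47 ± 0.15 (adjusted p = 0.108). For the brighter Commd1 probe ILMN_1231658 that difference had the opposite sign (0.20 ± 0.11, adjusted p = 0.406). Other kidney values, of Dcn (ILMN_2596346, -0.36, adjusted p = 0.376) and Slc22a18 (ILMN_2702633, -0.14, adjusted p = 0.441), were lower in XmO. In kidney the 7 probes of fibroblast and matrix markers (5 of 8 genes counted, not Col1a2, Fbn1 and Postn) had a median XmO minus XpO difference of -0.17, 2 of them at an unadjusted p under 0.05, while their summed level was 1468 to 1615 in XpO and 1498 to 1713 in XmO. The 7 probes of adipocyte markers (6 of 8 genes counted, not Cfd and Retn) were all lower in XmO, by a median difference of -0.159, with sums of 11720 to 16080 in XpO and 11780 to 14320 in XmO. Other marker lists of 8 genes separated XmO from XpO in kidney, in either direction. Skeletal muscle markers (5 counted, not Ckm, Myh4 and Mb) summed to 8209 to 8579 in XpO and 8670 to 9764 in XmO. None of their 5 probes had an unadjusted p under 0.05 (limma). Adrenal markers (4 counted, not Cyp11b1, Cyp11b2, Dbh and Pnmt) summed to 506.3 to 541.4 in XpO and 489.4 to 502.8 in XmO. The part of any of these markers in the kidney values was not tested. In liver Dcn (ILMN_2604695) lay at 8.32, 8.21 and 8.35 in XmO and at 8.06, 7.97 and 8.12 in XpO (0.24, 0.06 to 0.43, adjusted p = 0.416), while the 3 brighter Dcn probes there had intervals that included 0. The other liver value was Slc22a18 (ILMN_2523666, 0.17, adjusted p = 0.514). Tssc4 (ILMN_2460043) lay higher in XmO without overlap in liver (0.13) and kidney (0.11), and Inpp5f (ILMN_2723699) lower in liver (-0.08) and muscle (-0.10).

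Averaged over liver, kidney and brain, 0 of 35 member probes passed the threshold between XmO and XpO (limma, 0.0227% of all 17640 probes did), 3 had an unadjusted p under 0.05 (9.82% of all) and 5 had pools that did not overlap (15.4% of all). These 3 were Grb10 (ILMN_1238905, -0.27, -0.48 to -0.06, adjusted p = 0.438), Impact (ILMN_2760977, -0.24, -0.45 to -0.04, adjusted p = 0.450) and Tssc4 (ILMN_2460043, 0.12, adjusted p = 0.488). The Grb10 mean came mostly from brain, where the difference was -0.67. Its differences in liver and kidney lay above that of brain by 0.61 ± 0.27 and 0.60 ± 0.27 (SE). The interval lay within ±0.5 for 34 of the 35 probes. Tests of whether the XmO minus XpO difference itself differed between 2 tissues passed the threshold for no member in any of the 6 pairs, with 1 to 5 probes at an unadjusted p under 0.05, where 0.0214% (liver and kidney), 0.0834% (liver and muscle), 1.44% (liver and brain), 0.0499% (kidney and muscle), 1.48% (kidney and brain) and 0.568% (muscle and brain) of all probes passed. Beside Grb10 and Commd1, the smallest adjusted p was that of Dlk1 (ILMN_1244618) between liver and brain (0.81 ± 0.27, adjusted p = 0.114). Dlk1 is a membrane protein that restrains the formation of fat cells.

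XX and XpO mice shared the cross, and here too no member probe passed the threshold, 0 of the same 40, 43, 45 and 51 in liver, kidney, muscle and brain (limma), where 0.146%, 0.0214%, 0.0138% and 0.00804% of all probes passed. The smallest adjusted p of a member was 0.118, 0.397, 0.172 and 1. There were 7, 5, 7 and 1 member probes at an unadjusted p under 0.05, against 19.3%, 9.51%, 13.6% and 2.39% of all probes, and 10, 6, 14 and 1 whose pools did not overlap, against 24.3%, 14%, 30.5% and 8.68%. XX pools are compared here with the same XpO pools as the XmO pools were. The median difference of the members was 0.0398, -0.0107, -0.0114 and -0.057, and median scaling turned the sign in liver (-0.0459) and kidney (0.0152).

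Grb10 (ILMN_1238905) had the smallest unadjusted p of all members: XX muscle pools were at 11.52, 11.49 and 11.68 and XpO pools at 11.18 and 11.10. The groups did not overlap, and the difference was 0.43 (0.22 to 0.64, limma, unadjusted p = 0.000945, adjusted p = 0.172), a 1.34-fold higher level in XX. Mest, a gene of the hydrolase family that marks embryonic mesoderm, lay higher in XX muscle, at 7.27, 7.42 and 7.35 against 7.08 and 6.87 (0.37, 0.17 to 0.58, adjusted p = 0.194), and in XX kidney, at 6.59, 6.71 and 6.79 against 6.47, 6.35 and 6.54 (0.24, 0.04 to 0.44, adjusted p = 0.454). It was 1 of 3 probes with an unadjusted p under 0.05 in 2 tissues, and in brain its XX pools lay below the XpO pools (-0.20, adjusted p = 1).

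In muscle 3 further members lay lower in XX. Impact (ILMN_2760977) was at 9.34, 9.39 and 9.24 in XX and at 9.54 and 9.98 in XpO (-0.44, -0.71 to -0.17, adjusted p = 0.217). Snrpn (ILMN_1247894) was at 11.55, 11.42 and 11.53 against 11.93 and 11.72 (-0.33, -0.53 to -0.12, adjusted p = 0.22), and the dim Tssc4 probe ILMN_2501602 at 6.41, 6.52 and 6.44 against 6.90 and 6.88 (-0.43, adjusted p = 0.254). None of these groups overlapped. Dlk1 (ILMN_2771738) and Usp29 (ILMN_2559962) lay higher in XX muscle, by 0.42 (adjusted p = 0.258) and 0.23 (adjusted p = 0.305). The summed level of 8 leukocyte and red cell markers (4 counted, not Ptprc, Lyz, Hbb-b1 and Cd68) was 9748 to 9962 in XpO muscle and 10130 to 17780 in XX muscle, with 0 of 5 probes at an unadjusted p under 0.05 (limma). Other marker lists of 8 genes also separated the groups. Neuron markers (4 counted, not Syt1, Nefl, Gad1 and Slc17a7) summed to 1779 to 1826 in XpO and 1981 to 2097 in XX, and kidney tubule markers (3 counted, not Umod, Slc12a3, Aqp2, Lrp2 and Slc22a6) to 307.5 to 310.7 and 346.1 to 506.6. Hepatocyte markers (6 counted, not Alb and Fgb) ran the other way, at 5987 to 10180 in XpO and 3337 to 5944 in XX, with 5 of 9 probes at an unadjusted p under 0.05. The part of these lists in the muscle values was not tested.

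**Figure D3:**
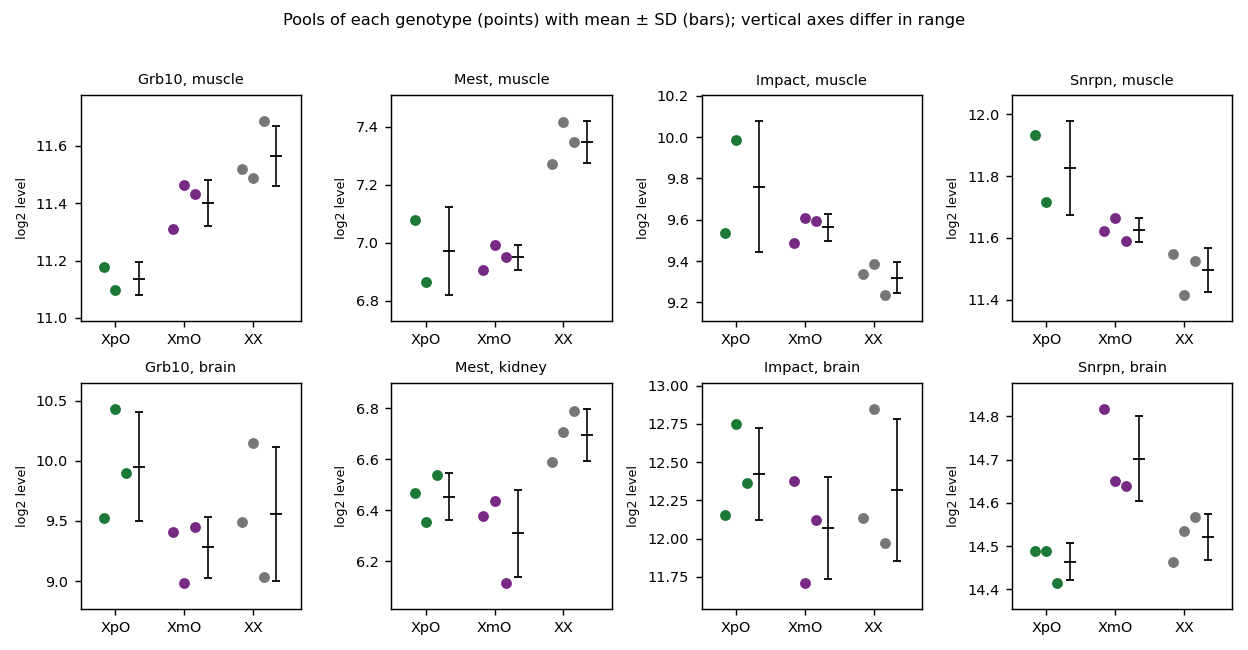
Normalised level (log2 intensity, vertical axes, which differ in range) of 1 probe each of Grb10, Mest, Impact and Snrpn in muscle (top) and in brain or kidney (bottom), as 1 point per pool with mean ± SD beside it, for XpO (2 pools in muscle), XmO and XX. The muscle pools of XpO stay below those of XX for Grb10 and Mest and above them for Impact and Snrpn, by less than 1 on the log2 scale.

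In liver the members with the smallest adjusted p were Inpp5f and Dcn. Inpp5f probe ILMN_2723699 lay lower in XX, at 9.76, 9.69 and 9.72 against 10.04, 9.95 and 9.92 in XpO (-0.25, -0.40 to -0.09, adjusted p = 0.118), and probe ILMN_2619390 lay higher, at 6.71, 6.72 and 6.58 against 6.40, 6.37 and 6.48 (0.25, 0.09 to 0.42, adjusted p = 0.128). The probes of Inpp5f thus pointed in opposite directions, without overlap of the pools in either. The bright Dcn probes ILMN_2747959 (12.51, 12.56 and 12.63 in XX, 12.72, 12.84 and 12.86 in XpO) and ILMN_2716756 (10.74, 10.83 and 10.71 in XX, 10.91, 11.05 and 11.19 in XpO) lay lower by 0.24 and 0.29 (adjusted p = 0.144 and 0.142), whereas the other 3 Dcn probes had values above 0. With the authors' normalised values Inpp5f ILMN_2723699 (adjusted p = 0.0349) and Dcn ILMN_2747959 (adjusted p = 0.0417) passed the threshold, both lower in XX. The summed level of 8 fibroblast and matrix markers (5 counted, not Col1a2, Fbn1 and Postn) was 758.4 to 1001 in XpO liver and 1007 to 1248 in XX liver. Their 6 probes had a median difference of 0.475, and 3 had an unadjusted p under 0.05 (limma). This was the direction of the other 3 Dcn probes and not that of ILMN_2747959 and ILMN_2716756. The part of these markers in the Dcn values was not tested.

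The remaining values with an unadjusted p under 0.05 were spread over liver and kidney. In XX liver Commd1 (ILMN_1215639, 0.26, adjusted p = 0.185) and Dlk1 (ILMN_1244618, 0.37, adjusted p = 0.185) lay higher and Ube3a (ILMN_2452619, -0.34, adjusted p = 0.179) lower. In XX kidney Gnas (ILMN_1252926, 0.32, adjusted p = 0.397) lay higher, and Ube3a (ILMN_2428622, -0.22, adjusted p = 0.429), Inpp5f (ILMN_2619390, -0.15, adjusted p = 0.522) and Igf2r (-0.14, adjusted p = 0.524) lay lower. The brain value was that of Dlk1 (ILMN_1244618), which lay at 6.33, 6.69 and 6.45 in XX and at 6.46, 7.90 and 7.21 in XpO (-0.70, -1.40 to -0.003, adjusted p = 1).

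A few members varied far more between pools than the other members. These ranges were taken for member probes only, so whether all probes spread as widely cannot be told from them. Over the pools of all genotypes the median range of a member probe was lowest in kidney (0.396), then muscle (0.418), liver (0.502) and brain (0.535), and 11 of 51 probes in brain ranged over more than 1 on the log2 scale, against 0 in liver, 2 in kidney and 3 in muscle. The widest was Dlk1 (ILMN_2771738) in brain, at 6.98, 9.88 and 8.92 in XpO, 8.34, 7.93 and 7.60 in XmO and 6.69, 8.0 and 7.11 in XX. Pool 2 of XpO was the highest of all 9, and within XpO the pools spanned 2.90, which is more than the difference of XX from XpO (-1.33, -2.83 to 0.17). Nnat (ILMN_2755578) in brain was at 7.98, 9.26 and 7.66 in XpO, 8.13, 8.51 and 8.42 in XmO and 7.94, 8.52 and 8.02 in XX, again with XpO pool 2 highest. Usp29 (ILMN_1229634) had pool 2 of XpO (10.72) and of XX (10.71) highest. The hypothalamus markers summed to 4020 in XpO pool 2 and to 427.6 to 1008 in the other 8 brain pools, and the cerebellum markers (6 of 8 counted, not Cbln3 and Car8) to 40480 in XmO pool 2, 31310 in XX pool 3, 11210 in XmO pool 1 and 1367 to 5610 in the others. The part of these markers in the brain values of the imprinted genes was not tested. Without XmO pool 2 and XX pool 3, again no member passed the threshold in brain.

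Igf2 in kidney ranged over 3.05, with XpO pools at 10.05, 11.21 and 8.29, XmO pools at 9.62, 8.35 and 8.82 and XX pools at 11.33, 8.83 and 9.07. High and low pools stood in XpO and XX alike, and the interval of the XmO minus XpO difference, -2.49 to 0.65, was the widest of any member in kidney. The 8 adrenal markers (4 counted, not Cyp11b1, Cyp11b2, Dbh and Pnmt) summed to 489.4 to 557.4 over the 9 kidney pools. Adipocyte markers summed to 11720, 16080 and 15830 in XpO, 14320, 14290 and 11780 in XmO and 13230, 15610 and 19600 in XX. Pool 2 of XpO, high for Igf2, had the highest of these sums in XpO, and pool 1 of XX, the highest for Igf2, the lowest in XX. Their part in the Igf2 values was not tested. In muscle Nnat ranged over 1.81.

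**Figure D4:**
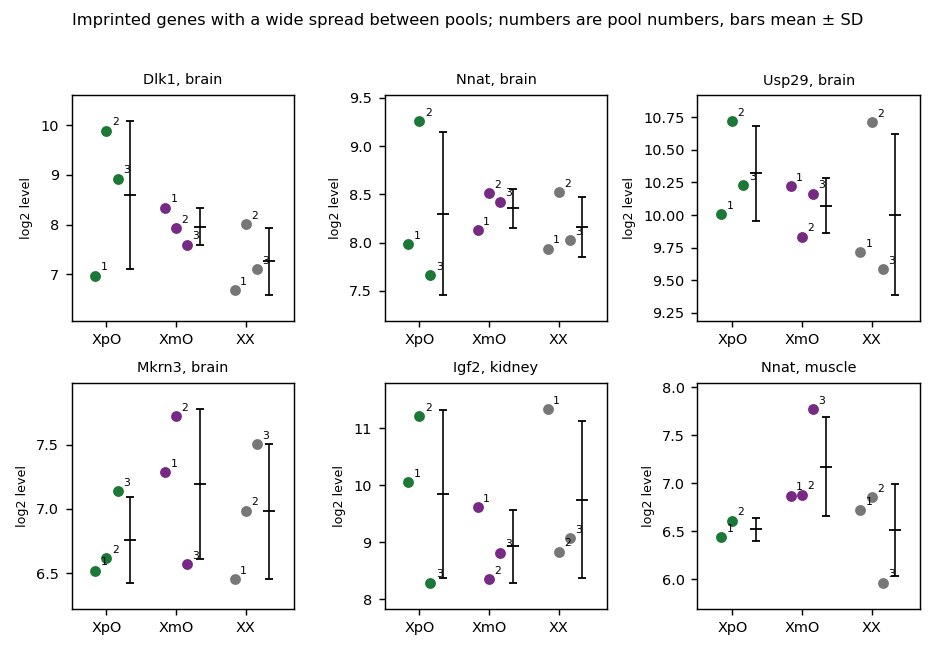
Normalised level (log2 intensity, vertical axes, which differ in range) of the imprinted genes with a wide spread, 1 point per pool with its pool number and mean ± SD beside each genotype: Dlk1, Nnat, Usp29 and Mkrn3 in brain, Igf2 in kidney and Nnat in muscle. XpO pool 2 is the highest of the XpO pools for Dlk1, Nnat and Usp29 in brain and for Igf2 in kidney.

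Xlr3b was the only X-linked member with a probe, counted in brain only, at 5.79, 5.75 and 5.82 in XpO, 6.08, 5.93 and 5.79 in XmO and 5.71, 5.78 and 5.77 in XX. Its mean level was below the 95th percentile of the probes counted in no tissue, its near-identical copies may share the probe, and neither difference passed the threshold (XmO minus XpO 0.15, -0.03 to 0.34, adjusted p = 0.504; XX minus XpO -0.03, -0.21 to 0.16). Ube3a had 5 probes, whose XmO minus XpO intervals in brain included 0 in each case, with a lowest unadjusted p of 0.165 (limma).

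Among 62 other imprinted genes, 28 to 35 had values in a tissue (47 to 60 probes) and none passed the threshold in either comparison in any tissue (limma). At an unadjusted p under 0.05 between XmO and XpO there were 6 of 47 liver, 9 of 52 kidney, 5 of 55 muscle and 4 of 60 brain probes, against the 9.7%, 11.2%, 9.13% and 11.2% of all probes. Between XX and XpO there were 11, 6, 12 and 2 of them, against 19.3%, 9.51%, 13.6% and 2.39%. None of 24 regulators of imprinting, such as DNA methyltransferases (14 to 16 genes with values), passed either, with 2 of 19, 4 of 22, 3 of 21 and 3 of 19 probes at an unadjusted p under 0.05 between XmO and XpO and 4, 1, 2 and 0 between XX and XpO, in the same order of tissues. Nor did any of 18 partners of IGF and growth signalling (14 to 16 genes with values), with 5 of 25, 4 of 25, 3 of 26 and 2 of 24 probes between XmO and XpO. Between XX and XpO these partners had 3, 4, 9 and 0 such probes, and the 9 of 26 in muscle stood against 13.6% of all probes. Of 10 other X-linked genes linked to imprinting, only 2 had values in liver (3 probes) and only 1 in kidney, muscle and brain (1 probe each). That 1 gene was Xist, the RNA that coats the inactive X chromosome. Xist passed in every tissue, higher in XX than in XpO. The other gene in liver did not pass, and between XmO and XpO neither gene passed.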

How the data were processed

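Total RNA of 4 tissues, pooled over 2 or 3 mice, was hybridised to Illumina Mouse WG-6 v1_1 arrays. In the first of the deposited tables, the authors gave bead intensities on a linear scale, summarised with BeadStudio and not normalised, with a decimal comma (46632 probe identifiers). In the second (28885 probes), the authors deposited values normalised by quantiles with lumi on a log2-like scale, on which dim probes are compressed, with blanks where a probe was not counted as detected in a tissue. It was used to choose the probes tested and as an alternative. The array's curated probes followed a RefSeq release, per the methods, and no coordinates were taken from the deposited files.

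Intensities were floored at 1 (0 values were lower), taken to log2 and quantile normalised over 35 of 36 arrays. Each tissue was fitted with limma 3.58.1 (R 4.3.3), the 3 genotypes as groups, with two-sided tests and Benjamini-Hochberg adjustment over all probes with values in the tissue (19878 in liver, 23417 in kidney, 21810 in muscle, 24863 in brain), threshold 0.05. Levels between tissues and differences between tissues came from 1 fit of 12 groups with the pool as a random block. The code was tested on simulated data. The number of arrays limits the precision. Probes were named from the platform annotation, older symbols included: 21014 probes had 1 symbol, 6 several and 7865 none. Named were the member probes past the threshold, then those with an unadjusted p under 0.05, or with non-overlapping pools in 2 or more tissues; Igf2, Xlr3b and the probes with the widest spread were added after their values were seen. A marker list that includes a withheld item is not reported here. The members and gene lists were chosen with earlier results of these data known. Alternatives were other normalisations, background correction, filters on dim probes, blocks, and leaving out each pool.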

Additional observations from a re-analysis of the deposited data

Results flagged for a closer look

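For 4 probes XX pools lay wholly above the XpO pools in 1 tissue and wholly below them in another. The difference between the tissues was not tested for XX minus XpO, and none of these values passed the threshold. Commd1 (ILMN_1215639) lay higher in XX liver (0.26 on the log2 scale, XX 9.30, 9.28 and 9.31, XpO 9.10, 8.87 and 9.16) and lower in XX muscle (-0.21, XX 9.47, 9.58 and 9.42, XpO 9.69 and 9.71). Inpp5f (ILMN_2619390) lay higher in XX liver (0.25) and lower in XX kidney (-0.15, XX 7.27, 7.11 and 7.07, XpO 7.32, 7.30 and 7.28). Mest (ILMN_1253664) lay higher in XX kidney (0.24) and muscle (0.37) and lower in XX brain (-0.20, XX 7.38, 7.46 and 7.48, XpO 7.53, 7.72 and 7.68). Mkrn3 (ILMN_2754447) lay higher in XX kidney (0.17, XX 6.88, 7.09 and 6.89, XpO 6.79, 6.73 and 6.83) and lower in XX muscle (-0.17, XX 6.37, 6.40 and 6.24, XpO 6.50 and 6.52). Pools of XX and XpO did not overlap for 8.68% of all brain probes, 30.5% of muscle, 14% of kidney and 24.3% of liver probes. Groups of 3 pools were too small for a test of single outlying pools.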

How the results depend on the processing

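Single probes were followed under alternatives only where their unadjusted p was under 0.05 as reported. Such values were picked for lying away from 0, so a kept sign says little about the other members. Of these 576 values, none changed sign and 571 kept their side of the threshold. No member passed it in XmO minus XpO in any tissue under any alternative. In XX minus XpO in liver, 5 member probes passed with median scaling (Commd1, Cd81, Inpp5f and 2 of Dcn, all lower in XX) and 2 with the authors' values. Between muscle and brain 1 probe passed with median scaling (Grb10, 1.09, adjusted p = 0.0483), and between liver and brain leaving out 1 pool gave 0 to 1 (Dlk1 without XpO pool 1, 1.15, adjusted p = 0.0366; Mest without XmO pool 3, 0.69, adjusted p = 0.0401). Members called between tissues were 50 for liver and brain with no filter on dim probes, and 21 each for liver and kidney, liver and muscle, and kidney and muscle with only the brighter probes, where fewer were tested. Median differences of the members moved, and the cause was not tested. With median scaling they were, for XmO minus XpO, -0.0755 in liver, -0.0652 in kidney, -0.136 in brain and -0.122 over 3 tissues, and for XX minus XpO -0.0459 in liver, 0.0152 in kidney and -0.0732 in muscle. The kidney value of XmO minus XpO was -0.0129 with no filter and -0.0673 with only the brighter probes, that of XX minus XpO -0.0502 with the latter, and the muscle value of XmO minus XpO -0.00667 with the authors' values. Leaving out 1 pool, XmO minus XpO gave -0.034 to 0.0416 in brain, -0.0433 to 0.0179 in muscle, -0.0807 to -0.00698 in kidney, -0.0134 to 0.0345 in liver and -0.0569 to 0.000542 over 3 tissues, and XX minus XpO 0.0114 to 0.0565 in liver, -0.0435 to 0.0336 in kidney and -0.0425 to 0.0127 in muscle.

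All probes called varied more, from 3 to 365 in liver for XmO minus XpO (10 as reported) and from 2 to 2791 for XX minus XpO (29 as reported). Pools of the same number did not deviate together (34 pairs, correlation -0.583 to 0.37, 4 over 0.1), so the numbers do not pair them, and with the replicate number as a block 0 members passed in any comparison. No slide was used as a block, since no slide was named for the arrays.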
